A study of Sus scrofa domesticus with 6 samples.

Results

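The cells described here were 597 of the 23667 cells with 500 or more UMIs (unique molecular identifiers, the tags by which captured transcripts are counted) in the reperfused pig lung graft, chosen to hold its neutrophils. A cell was taken when S100A8 and S100A12 made up 1% or more of its UMIs, when CD74 and HLA-DRA of the MHC class II pathway made up under 0.3%, and when it held 0 UMIs of the T cell gene CD3E and the B cell gene CD79A. The rule names S100A9 as well, which was not analysed here. These values chose the cells, so the levels of those 6 genes are a description, and every contrast of the cells with other cells of their library is given without a test. The cells are called S100-high cells below, because they carried neutrophil genes but also, in part, genes of monocytes. In the library sorted as negative for the leukocyte protein CD45 they also held many transcripts of lung epithelium.

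The libraries came from domestic pigs (Sus scrofa domesticus) in an orthotopic single-lung transplant model, and all hold lung tissue. Cold ischemia of the graft lasted 24 hours and reperfusion 8 hours, the injury abbreviated IRI (ischemia-reperfusion injury). Graft cells were sorted on CD45, the leukocyte surface protein encoded by PTPRC, into 2 libraries of CD45+ cells and 1 library of CD45- cells. The control group has 3 libraries of unsorted cells of donor right lungs. The labels give no strain, sex or age for the pigs and do not say which animals the CD45+ and CD45- libraries share, so sort and animal cannot be told apart, and the 2 CD45+ libraries show the spread between these samples only.

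Neutrophils are short-lived phagocytes that leave the blood within hours of tissue injury. They store enzymes in granules made in sequence in the bone marrow: azurophil granules with myeloperoxidase, specific granules with lactoferrin, and gelatinase granules with matrix metalloproteinases. They sense complement fragments, bacterial peptides and chemokines, produce superoxide through the NADPH oxidase, and can release chromatin as extracellular traps after PADI4 citrullinates histones. S100A8, S100A9 and S100A12 are calcium-binding alarmins of the neutrophil cytosol that monocytes share. In lung transplantation neutrophil influx is a feature of early graft injury.

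The graft libraries held 19435860 and 19098567 UMIs in the CD45+ libraries and 40647380 UMIs in the CD45- library, against 25802239 to 33549585 in the controls. The lowest deposited cell had 74, 115 and 117 UMIs in the graft libraries and 1001 in each control, so the cells entered the groups at different depths. Cells were named by running numbers, so barcodes shared between libraries could not be counted; 0 cell profiles were identical between any 2 libraries. Doublets were not called, and intervals below cover counting error only.

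S100-high cells made up 3.88% of cells in CD45+ replicate 1 (176 of 4538, exact 95% interval 3.34 to 4.48%), 5.03% in CD45+ replicate 2 (205 of 4076, 4.38 to 5.75%) and 1.43% in the CD45- library (216 of 15053, 1.25 to 1.64%). Their share was thus higher in both CD45+ libraries than in the CD45- library. Of 2 against 1 libraries a 2-sided exact permutation test cannot go below p = 0.333, and no other test of the shares was run. T cells were taken as cells with a CD3E UMI and 0 UMIs of CD79A and of EPCAM, a gene of structural cells. Against them the order was the other way. There were 9.16 and 17.7 S100-high cells per 100 T cells in the CD45+ libraries and 65.3 in the CD45- library. The S100-high cells had no EPCAM limit, and what that limit does to the ratio in each library was not tested. PTPRC was found in 23.3%, 26.3% and 21.3% of S100-high cells of CD45+ replicate 1, CD45+ replicate 2 and the CD45- library after each cell was thinned to 500 UMIs, and in 34.6%, 32.4% and 26.6% of T cells thinned alike. The S100-high cells and the T cells of the CD45- library thus held PTPRC transcripts although the sort was for cells without CD45.

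S100-high cells were shallow. Their median was 1180, 1686 and 1175 UMIs in CD45+ replicate 1, CD45+ replicate 2 and the CD45- library, against 3040, 2949 and 1974 UMIs in the other cells. They held a median of 428, 554 and 499.5 genes, against 1050.5, 1018 and 814 in the other cells. Below, 3 values for 1 gene stand in that library order. The median share of S100A8 and S100A12 was 1.61%, 1.91% and 2.37% of UMIs, with the highest cell at 11.4%, 16.6% and 26.1%. Within 0.25 percentage points inside the 1% limit were 41, 39 and 30 cells, and within 0.25 points outside it were 56, 56 and 44. ARG1 stood at 11679, 16377 and 4738 CPM (counts per 1e+06 summed UMIs) in the cells just inside and at 16508, 14599 and 11007 in those just outside, and MMP9 at 507, 145 and 772 inside and 229, 64.4 and 194 outside.

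In the controls the same rule chose 7, 17 and 27 cells, 0.141%, 0.259% and 0.424% of cells. At the controls' lowest depth of 1001 UMIs the graft shares were 3.04%, 5.28% and 1.02%. At that depth ARG1 had 14923, 9913 and 8441 CPM in graft S100-high cells, and 979, 139.5 and 1052 in the control cells. IL1R2 had 3285, 2201 and 1877 CPM in the graft cells, and 0, 112 and 32.0 in the control cells. CXCL8 did not separate the groups, at 6524, 3162 and 2182 CPM in the graft and 0, 5148 and 1836 in the controls. The control cells were few and mixed: C1QC, a macrophage complement gene, had 7.05, 11.8 and 0 CPM in the graft cells and 0, 195 and 1724 in the controls, and the platelet gene PPBP had 42.3, 42.2 and 36.9 in the graft and 1064, 2707 and 42.7 in the controls. Because no control was sorted, injury and sort cannot be told apart here.

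The program of the S100-high cells was described by summing UMIs over the cells of a library and setting CPM against all its other cells of 500 or more UMIs. Of the genes in the rule, S100A8 (chromosome 4, 96209670 to 96210603, Sscrofa11.1) stood at 7447, 8655 and 14599 CPM, against 96.9, 305 and 46.9 in other cells, and S100A12 (chromosome 4, 96225691 to 96227030) at 14197, 14138 and 24382, against 241, 468 and 109. Of 2495 genes that reached 50 CPM in the higher population of each library, 344 (13.8%) were over 2-fold higher and 315 (12.6%) over 2-fold lower in S100-high cells of each of the 3 libraries. The median log2 ratio over these genes was -0.47, -0.29 and -0.10. Since the cells were chosen by their RNA, nothing is read from these counts beyond the description. A gene low in other cells could reach the level only through the S100-high cells and was then higher by the filter itself, so the counts by list below are a description too. Of 13 neutrophil markers measured, these 2 included, 12 were over 2-fold higher in S100-high cells of each library; the exception was SORL1, a sorting receptor, at 83.8, 61.6 and 59.9 against 142, 116 and 40.8.

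Of the specific and gelatinase granule list 14 of 18 genes were measured and 10 reached that level; the 10 were over 2-fold higher in each library, which the filter itself fixes for genes such as LTF, MMP8 and MMP9 that were low in other cells. Of the 4 below it, OLFM4 had 0 UMIs in S100-high cells, and PTX3, a soluble pattern recognition protein, was lower, at 0, 0 and 62.7 CPM against 0.316, 3.17 and 225 in other cells. LTF, the iron-binding lactoferrin of specific granules (chromosome 13, 29413886 to 29445751), had 1338, 2115 and 3155 CPM in S100-high cells and 5.42, 15.7 and 9.90 in other cells. Other cells were thus close to 0 for it in every library, and its ratio of 247, 134 and 319 was the highest by the smallest of 3 ratios among genes with a symbol and 100 CPM or more. MMP9, the gelatinase of gelatinase granules (chromosome 17, 48179690 to 48186782), had 1078, 928 and 2130.3 CPM, against 14.8, 27.6 and 6.17. MMP8, neutrophil collagenase, had 512, 300.02 and 640.2, against 9.05, 6.50 and 2.57. The monocyte/macrophage gate of the same libraries (cells with 2 or more UMIs of 12 monocyte and macrophage markers, CD74 and HLA-DRA at 0.3% or more and 0 UMIs of CD3E, CD79A and EPCAM) had only 0, 10.2 and 0 CPM of MMP8 and 52.2, 99.4 and 51.5 of MMP9. LCN2, the siderophore-binding lipocalin, had 272, 198 and 1234 CPM, against 6.05, 5.24 and 515 in other cells, and was thus also abundant among other cells of the CD45- library. CRISP3, MMP25, CHI3L1, ADAM8, TIMP1 and ARG1 made up the rest of the 10.

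The azurophil granule list gave a mixed picture, with 7 of 10 genes measured. MPO, myeloperoxidase, and BPI, a bactericidal protein, had 0 UMIs in all 597 cells, which allows up to 3 UMIs in each sum of 334092, 616627 and 367082 UMIs. Of 4 genes of this list at level, LYZ (lysozyme) and SRGN (serglycin, a granule proteoglycan) were over 2-fold higher in each library; SRGN had 11985, 9787 and 5958 CPM, against 2179.7, 3388 and 409. PADI4 had 344, 149 and 196 CPM, against 9.48, 5.13 and 0.975 in other cells.

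Receptors came next, with 15 of 22 genes at level over 2-fold higher and 0 lower, of 26 measured. C5AR1, the receptor of complement fragment C5a, had 790.2, 1056 and 599 CPM, against 32.5, 75.6 and 9.42. CSF3R, the granulocyte colony-stimulating factor receptor, had 287, 238 and 163, against 24.0, 67.7 and 7.12. TREM1, an amplifier of inflammatory signalling, had 736, 488 and 316, against 52.1, 78.9 and 10.9, and 11.7, 70.9 and 44.1 in the monocyte/macrophage gate. IL1R2, the decoy receptor that binds interleukin 1 without signalling (chromosome 3, 52367434 to 52406393), had 3029, 2171 and 2038 CPM in S100-high cells and 66.5, 91.2 and 36.2 in other cells, ratios of 45.5, 23.8 and 56.4 within the libraries. TLR2, TLR4, CD14, CCR1, PTAFR, CSF2RB, PLAUR, CD44, TNFAIP6 and TNFRSF1B were among the others. CXCR4, a receptor of aged neutrophils and of lymphocytes, had 245, 266 and 177 CPM in S100-high cells and 1238, 1093 and 141 in other cells, lower in both CD45+ libraries and close to even in the CD45- library. CXCR1, CXCR2, FPR1, FPR2 and CD177 were not analysed here.

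**Figure D1:**
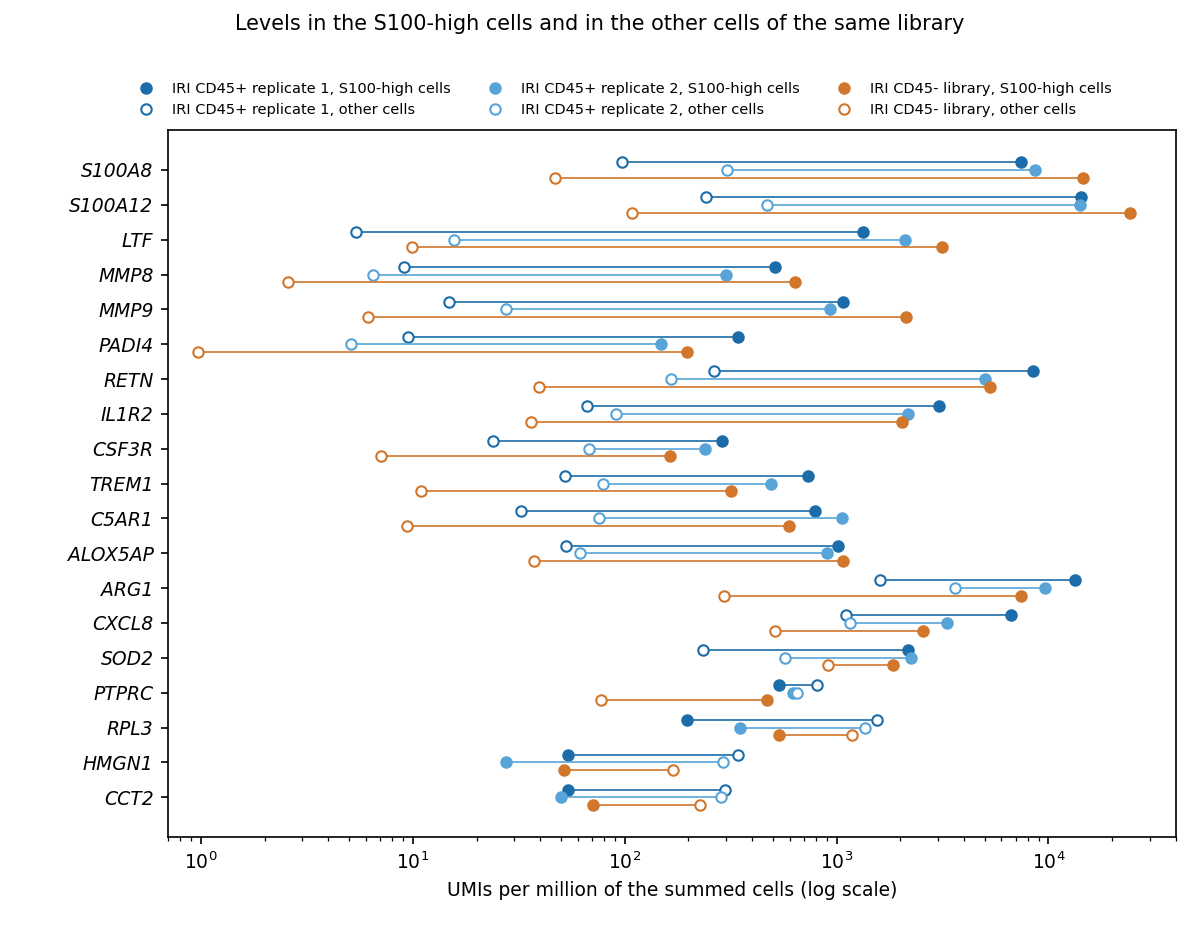
CPM (log scale) of 19 genes in the summed S100-high cells (filled points) and in the other cells of the same library (open points), for CD45+ replicate 1, CD45+ replicate 2 and the CD45- library from top to bottom within a gene; lines join the pair. Granule, receptor and alarmin genes lie to the right in S100-high cells, PTPRC does so only in the CD45- library, and RPL3, HMGN1 and CCT2 lie to the left.

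Of the secreted mediators 7 of 19 genes at level were over 2-fold higher and 0 lower (CSF1, CXCL8, HBEGF, IL18, IL1A, OSM and TNF). CXCL8, the chemokine that draws neutrophils (chromosome 8, 69932646 to 69935861), had 6684, 3319.7 and 2558 CPM, against 1105, 1157 and 515 in other cells and 4241, 1564 and 889.6 in the monocyte/macrophage gate. TNF had 2188, 1091 and 793, against 129, 199.99 and 17.3. OSM (oncostatin M, an interleukin 6 family cytokine) had 1072, 1250.3 and 602, against 152, 388 and 49.9. CXCL2, another neutrophil chemokine, had 4029, 5104 and 4808, against 761, 1512 and 4347; it was higher in S100-high cells of both CD45+ libraries and near even in the CD45- library. IL10, an anti-inflammatory cytokine, was low at 102, 102 and 73.6, against 46.0, 75.9 and 7.10. IL1B was not analysed here.

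ARG1, the arginase that splits arginine to ornithine and urea (chromosome 1, 32006035 to 32028983), had 13418, 9612 and 7391 CPM in S100-high cells and 1607, 3635 and 295 in other cells. It was also abundant in the monocyte/macrophage gate, at 8067, 9043 and 6212, which was within 2-fold of the S100-high cells in each library. ARG2, the mitochondrial arginase, had 823, 631 and 637, against 60.7, 83.9 and 42.6 in other cells and 37.8, 114 and 55.1 in the monocyte/macrophage gate. Of the 7 genes of arginine and polyamine metabolism at level these 2 were over 2-fold higher and 0 lower. Of 5 lipid mediator genes at level 4 were higher: ALOX5AP, which presents arachidonate to 5-lipoxygenase, had 1021, 898 and 1071, against 53.1, 61.7 and 37.4, and ACSL1, PTGS2 and TBXAS1 were the others. Of 8 NADPH oxidase genes 5 were higher, among them CYBA, NCF1, NCF4 and RAC1; the organiser subunit NCF1 had 83.8, 148 and 70.8, against 12.1, 23.7 and 2.40. The hormone RETN (resistin), made by myeloid cells in humans (chromosome 2, 71484164 to 71485577), had 8417, 5021 and 5274 CPM, against 265, 165 and 39.4. HK3, a myeloid hexokinase, had 1787, 1674 and 1427, against 131, 249 and 43.7, and with LDHA and BNIP3L it was 1 of 3 higher among 19 hypoxia and glycolysis genes at level. HIF1A, at 156, 123 and 104 against 159, 185 and 103, was not among them.

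Further genes that the rule for names placed among the 15 highest were MS4A8, PLBD1, NRG1, VCAN, ADGRG3, ROGDI and DGAT2. NRG1, an epidermal growth factor family ligand, had 314, 362 and 158 CPM, against 8.95, 18.6 and 6.55. DGAT2, an enzyme of triglyceride synthesis, had 195, 175 and 123, against 8.21, 13.001 and 4.17, and 0, 5.29 and 0 in the monocyte/macrophage gate. ADGRG3, an adhesion G protein-coupled receptor of granulocytes in humans, had 183, 122 and 106, against 6.11, 8.14 and 1.27. VCAN (versican), by contrast, is a gene of classical monocytes.

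Of 33 genes of the NF-kB and early response list 6 were over 2-fold higher (DUSP2, IER3, SOCS3, SOD2, TNIP1 and TRAF1) and FOSB was lower; this share, like those of the hypoxia list and of the survival list below, was near the 13.8% over all genes. SOD2, mitochondrial superoxide dismutase, had 2164, 2238 and 1847 CPM, against 235, 569 and 909. Among 24 interferon response genes 5 were higher (BST2, IFI6, IFIT2, ISG15 and OAS2) and 0 lower, beside 13.8% higher and 12.6% lower over all genes. ISG15 had 4065, 3548 and 2762, against 1388, 1344 and 463. BCL2A1, a survival protein of the BCL2 family, had 3337, 1463 and 1092, against 676, 595 and 113, and with NLRP3 it was 1 of 2 higher among 13 survival and death genes; MCL1 had 1589, 1641 and 1193, against 827, 940.2 and 1203. Of the transcription factors CEBPB, FOSL2, NFIL3 and SPI1 were higher and XBP1 was lower.

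Lower genes included many of translation. Of 19 ribosome and translation genes 10 were over 2-fold lower in each library and 0 higher; RPL3 had 198, 352 and 534 CPM in S100-high cells, against 1551, 1357 and 1183 in other cells, and RPS18 had 413, 918 and 1806, against 4731, 4274 and 4696. Of 37 oxidative phosphorylation genes 6 were lower and 0 higher, a share near the 12.6% over all genes, with a list median log2 ratio of -1.77, -0.87 and -0.52. COX5A, a subunit of cytochrome c oxidase, had 8.98, 40.5 and 51.8, against 246, 219 and 117. SOD1, GPX4 and PRDX2, enzymes that remove superoxide and peroxides, were also over 2-fold lower. SLC11A1 and SOD2 of the same list, with 13 genes at level, were higher, beside 12.6% lower and 13.8% higher over all genes. The 10 lowest by the rule for names were ALDH3A2, GHSR, GSPT1, SLA-DMA, DKC1, BANF1, DBI, HMGN1, IPO7 and CCT2. HMGN1, a nucleosome-binding protein, had 53.9, 27.6 and 51.8, against 342, 291 and 169. CPM are shares of the summed UMIs, not amounts per cell.

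**Figure D2:**
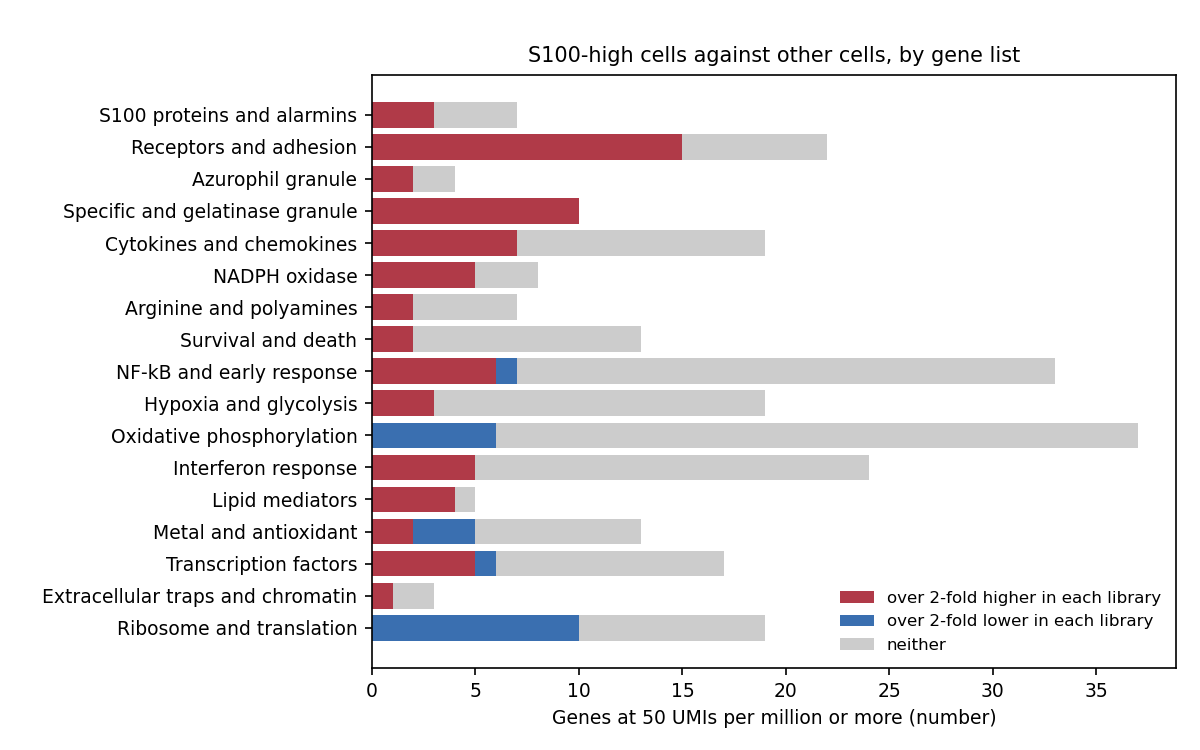
Number of genes per list (horizontal axis) that reached 50 CPM in the higher population of each library, split into those over 2-fold higher in S100-high cells of each library, those over 2-fold lower in each, and neither. Specific and gelatinase granule genes at level are all drawn as higher (10 of 10), in part by the filter itself, and 2 of 4 azurophil granule genes are. Of the ribosome genes 10 of 19 and of the oxidative phosphorylation genes 6 of 37 are lower, beside 12.6% of all genes.

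The S100-high cells were not uniform. After thinning to 500 UMIs, ARG1 was found in 63.1, 52.2 and 38.0% of cells, CXCL8 in 79.0, 61.5 and 45.4%, IL1R2 in 35.2, 45.4 and 38.4%, MMP9 in 26.7, 27.8 and 40.7% and LTF in 15.9, 22.4 and 39.4%. In T cells thinned alike the shares were 5.20%, 13.4% and 1.51% for ARG1 and 0.416%, 0.517% and 0.302% for MMP9, given as the background that free RNA in droplets can set. Without thinning MMP9 was found in 41.5%, 40.0% and 46.8% of S100-high cells. ARG1 varied most, by the ratio of variance to mean; in the CD45- library its median was 0 UMIs per 500 while the highest cell had 49, and 10% of the cells held 66.3% of its UMIs. ISG15, CXCL2, RETN, CCL3L1, S100A8, S100A12, NFKBIA, CXCL8 and CTSB followed. NFKBIA, an inhibitor of NF-kB, was the most even of these 10 by the share of UMIs in the top 10% of cells (27.7%, 24.9% and 29.1%), with a median of 7, 7 and 5 UMIs per 500 and UMIs in 94.9%, 92.7% and 89.8% of cells.

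Genes of monocytes were present in part of the cells. CD14, CD68, CSF1R and VCAN of the monocyte and macrophage list were over 2-fold higher in S100-high cells than in other cells of each library. The summed level of the 12 listed genes was 2978, 3905 and 1580 CPM in S100-high cells, against 646, 1321 and 173 in other cells, and 8, 12 and 9 of the 12 were detected in S100-high cells. CD163, MSR1, C1QA and MARCO had 0 UMIs in CD45+ replicate 1, and C1QB, C1QC and MARCO had 0 in the CD45- library. The label of neutrophils therefore holds for part of the cells by these markers. In the CD45- library part of the cells also held UMIs of EPCAM, CDH5 or COL1A1, genes of structural cells. Whether these came from free RNA, doublets or structural cells was not tested.

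A split on 4 monocyte genes (CSF1R, VCAN, CD163 and MSR1), chosen after the values were seen and so without a test, described the mixture. Cells with 3 or more UMIs of them numbered 28 of 176 (15.9%) in CD45+ replicate 1, 53 of 205 (25.9%) in CD45+ replicate 2 and 23 of 216 (10.6%) in the CD45- library; cells with 0 UMIs numbered 137, 118 and 164. The first had a median of 4930.0, 5297 and 2332 UMIs and the second 1079, 1204 and 1029.5, so a shallow cell fell more easily into the second. MMP9 had 30.3, 112 and 1019 CPM in the monocyte-gene cells and 1826, 2363 and 2747 in the cells without, and MMP8 had 60.5, 0 and 207, against 838, 789 and 852. Both metalloproteinases were thus higher in the cells without monocyte genes in every library. CRISP3, a secreted protein of specific granules in humans, had 7.56, 5.91 and 382 against 2726, 1147 and 1091, and RAC2, the GTPase of the neutrophil oxidase, 68.1, 157 and 159 against 693, 731 and 440.3. SLAMF7, CD69, NT5C3A and CCL5 were also higher in the cells without. CCL5 had 371, 254 and 350 CPM in the monocyte-gene cells against 3435, 1026 and 513. The cells outside the rule had 2881, 1802 and 291, so CCL5 does not mark S100-high cells alone.

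ARG1 went the other way, with 19657, 10375 and 9109 CPM in the monocyte-gene cells and 8585, 8303 and 5082 in the cells without, closest together in CD45+ replicate 2. F13A1, a coagulation factor subunit of monocytes, had 2224, 1703 and 1306 against 246, 237 and 412, LYZ 1179.9, 1937 and 1417 against 184, 747 and 392, and CD14 1989, 1632 and 1131 against 458, 637 and 343. TNF had 4425, 1212 and 1736, against 536, 647 and 533. LTF, unlike MMP9 and MMP8, was higher in the monocyte-gene cells of each library, at 2677, 2549 and 4061 against 385, 1137 and 2678. The neutrophil genes IL1R2, at 5037, 2410 and 3806 against 1162, 2036 and 1790, and PADI4, at 492, 154 and 255 against 257, 132 and 182, went the same way as LTF. The neutrophil genes thus did not share 1 direction in this split. S100A12 was lower in the monocyte-gene cells of each library, at 11912, 11688 and 18154 against 15645, 18201 and 27279.6, and so was CXCL8, at 5801, 2558 and 1975 against 7149, 5293 and 2501. CSF3R had 303, 209.9 and 271 against 285, 310.5 and 113, with no common direction.

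At 500 UMIs a cell, MMP9 and CD14, the lipopolysaccharide co-receptor of monocytes, were found together in 5, 13 and 8 cells, where the single shares would give 9.61, 18.4 and 20.8 if unrelated. MMP9 and MMP8 were found together in 12, 28 and 41 cells, where the single shares would give 8.55, 11.96 and 21.2. ARG1 and CD14 were found together in 26, 48 and 39 cells, against 22.7, 34.4 and 19.4. Other neutrophil genes differed in their pairing with CD14. MMP8 and CD14 were together in 6, 8 and 4 cells, against 6.55, 13.8 and 12.3. By contrast LTF and CD14 were together in 14, 25 and 23, against 5.73, 14.8 and 20.1. IL1R2 and CD14 were together in 18, 34 and 31, against 12.7, 29.9 and 19.6. UMIs were also counted over 6 neutrophil genes (MMP9, MMP8, LTF, PADI4, CSF3R and IL1R2), without thinning. Of the 137, 118 and 164 cells with no monocyte-gene UMI, 78, 85 and 116 had 3 or more, and 26, 17 and 18 had 0. Of the 28, 53 and 23 cells with 3 or more monocyte-gene UMIs, 28, 47 and 18 had 3 or more, and 0, 2 and 2 had 0. The 6 genes were thus found in both parts of the split. The monocyte-gene cells were deeper, and what depth does to these counts was not tested.

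**Figure D3:**
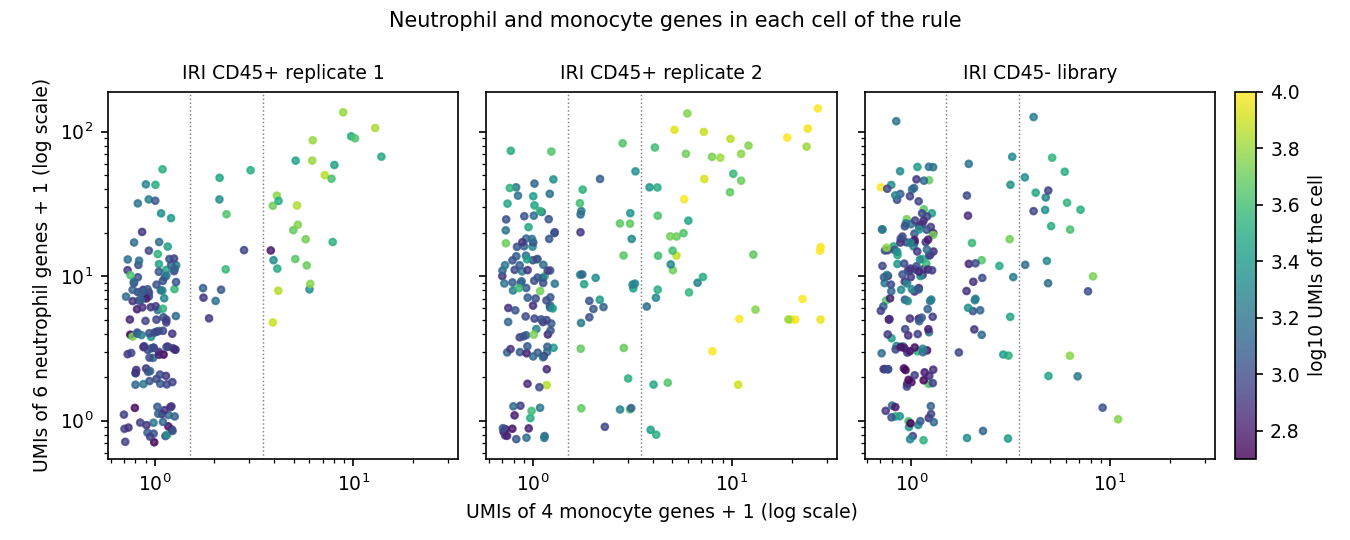
Each point is 1 S100-high cell: UMIs of 4 monocyte genes plus 1 (horizontal, log scale) against UMIs of 6 neutrophil genes plus 1 (vertical, log scale), coloured by log10 of the cell's UMIs, 1 panel per library, with points moved slightly at random so that they can be told apart. Dotted lines mark the limits between 0, 1 to 2, and 3 or more monocyte-gene UMIs; the median cell with 3 or more had 4930.0, 5297 and 2332 UMIs and that with 0 had 1079, 1204 and 1029.5, with overlap.

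**Figure D4:**
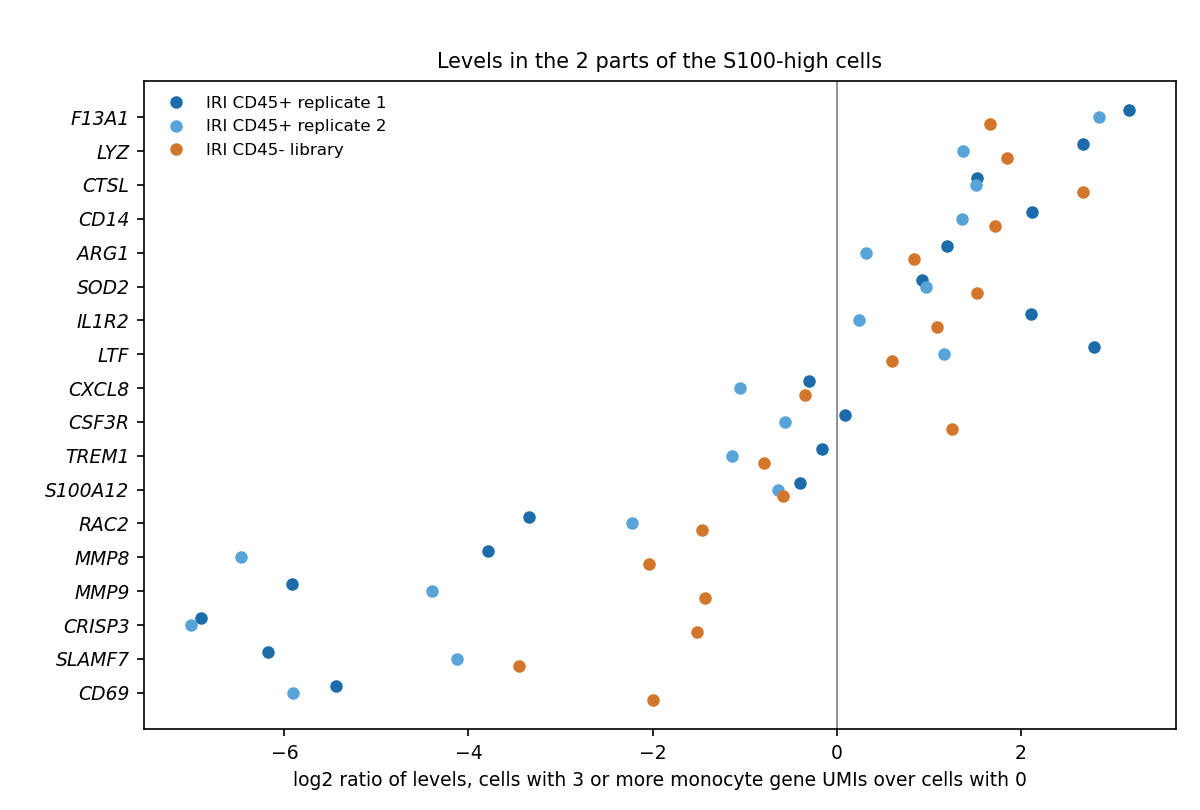
log2 ratio (horizontal) of CPM in S100-high cells with 3 or more monocyte-gene UMIs over those with 0, for 18 genes, 1 point per library; counts under 3 UMIs were set to 3. F13A1, LYZ, CTSL, CD14, ARG1, SOD2, IL1R2 and LTF lie to the right in each library. CXCL8, TREM1, S100A12, RAC2, MMP8, MMP9, CRISP3, SLAMF7 and CD69 lie to the left, and CSF3R has no common direction.

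The S100-high cells of the CD45+ libraries were then compared with those of the CD45- library, a contrast that the rule did not use. UMI sums per library were tested with edgeR's quasi-likelihood test, with 1 residual degree of freedom, so the lone CD45- library is assumed to vary like the CD45+ ones. The spread of a typical gene was taken from all genes together (common biological coefficient of variation 0.355). An SE or adjusted p by edgeR below thus does not measure how much that gene itself varied between libraries. Of 4400 genes tested, 9 (0.205%) were higher and 138 (3.14%) lower in CD45+ at a Benjamini-Hochberg adjusted p under 0.05, 147 (3.34%) in all; 499 had an unadjusted p under 0.05. Of the same genes DESeq2 called 0 higher and 40 lower, with 225 at an unadjusted p under 0.05. The 3 values of a gene in this comparison are scaled by TMM (trimmed mean of M values).

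No neutrophil marker was called: of the 11 tested besides S100A8 and S100A12, whose share chose the cells, 0 passed the edgeR test and 0 had an unadjusted p under 0.05; DESeq2 called 0 of them as well. ARG1 had 15279 and 9609.9 CPM in the CD45+ libraries and 7607 in the CD45- library, a log2 change of 0.71 (SE 0.56, adjusted p = 0.718). LTF had 1523 and 2114 in the CD45+ libraries and 3247 in the CD45- library, a log2 change of -0.83 (SE 0.55, adjusted p = 0.653). The CD45+ values of ARG1 lay above and those of LTF below the CD45- value, by differences that missed the threshold. MMP9 (1227, 927 and 2193; log2 change -1.03, adjusted p = 0.498) and CXCL8 (7610.5, 3319 and 2633; 1.05, adjusted p = 0.514) missed it too. After thinning, 4 of these 11 (ARG1, CXCL8, TREM1 and SORL1) were found in a higher share of cells in both CD45+ libraries than in the CD45- library. Another 4 (MMP9, MMP8, LTF and PADI4) were found in a lower share in both, and 3 went neither way. A lone library lies lowest or highest for many genes without any difference between sorts, so these counts are a description. Of the 8, only ARG1, CXCL8 and LTF had a CD45- interval clear of both CD45+ intervals.

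The 9 higher genes included G0S2, an inhibitor of triglyceride breakdown (chromosome 9, 133287065 to 133288066). It had 1980.2 and 451 CPM in the CD45+ libraries and 118 in the CD45- library, 3.36 higher on the log2 scale (SE 0.71; adjusted p by edgeR = 1.88e-04). It was found in 57.4% and 20.5% of thinned S100-high cells of the CD45+ libraries and in 6.48% of the CD45- library, against 2.08%, 1.21% and 0.906% of T cells. CD45+ replicate 1 stood well above replicate 2, and without replicate 1 the log2 change was 1.90, with no test. P2RY14, a receptor of UDP-sugars, had 143 and 35.7, against 8.41 (log2 change 3.30, SE 0.93, adjusted p = 0.0151). NR4A3, a nuclear receptor of the early response, had 232 and 85.9, against 30.8 (log2 change 2.32, SE 0.70, adjusted p = 0.0305). Both were highest in CD45+ replicate 1, and without it the log2 changes were 1.67 for P2RY14 and 1.37 for NR4A3; that of CRTC2, 2.38 over both, was 1.74. All values without replicate 1 are differences of log2 CPM with a larger prior count than the edgeR changes, which shrinks changes at low counts. They are thus not like for like with the changes over both libraries. EDN1, the vasoconstrictor endothelin 1, had 688 and 188 CPM in the CD45+ libraries and 104 in the CD45- library (adjusted p = 0.0492); without replicate 1 its log2 change of 2.06 became 0.83. NOCT, a circadian phosphatase, had 239 and 258, against 61.7 (adjusted p = 0.0404). CRTC2, EVL and 2 identifiers without a symbol were the rest. In DESeq2 0 of the 6 genes named with CRTC2 and without EVL kept the call; the adjusted p of G0S2 was 0.960 there and ranged from 1.83e-07 to that value over the alternatives with a test.

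The lower genes were led by transcripts of lung epithelium. SFTPC, surfactant protein C of alveolar type 2 cells, had 23.9 and 6.49 CPM in the CD45+ libraries and 27216 in the CD45- library, where the other cells had 73804. It was found in 1.14% and 0.488% of thinned S100-high cells of the CD45+ libraries and in 93.5% of those of the CD45- library, where 90.6% of thinned T cells held it too. SFTPA1 was at 0 UMIs in both CD45+ sums and at 557 in the CD45- library, at least 483-fold lower by a floor of 3 UMIs over the group, and SCGB1A1, the club cell secretoglobin, was at least 261-fold lower in the same way. CLDN4, KRT8, SFTPD, SCGB3A2, TIMP3 and KRT18 were also at 0 UMIs in the CD45+ sums. In all, 50 of the 138 lower genes had 0 UMIs there. The summed level of the alveolar type 2 list was 35.9 and 8.11 CPM in the CD45+ S100-high cells and 28372 in those of the CD45- library, whose other cells had 81804. Over the genes listed in all 3 libraries the airway list stood at 0, 1.62 and 1163, the fibroblast list at 0, 0 and 133, and the red cell list, then HBB alone, at 5.99, 1.62 and 286. The part of this RNA in the 138 lower genes was not tested, and the next count has no share over all 4400 genes beside it. Of the 138, 133 were at a higher level in the other cells of the CD45- library than in its S100-high cells.

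The 5 that were not were S100A2, KRT17, LCN2, PGLYRP1 and TCN1, of which S100A2 and KRT17 are genes of basal and injured epithelium. S100A2 had 3 UMIs in the CD45+ sums and 1281 in the CD45- library, a ratio of 1109.8 (95% counting interval 379 to 5389), and stood at 3592 CPM in the S100-high cells and 3448 in the other cells there. LCN2, PGLYRP1 and TCN1 are genes of specific granules in humans. LCN2 had 310.1 and 198 CPM in the CD45+ libraries and 1270.1 in the CD45- library, where other cells had 515, a log2 change of -2.33 (SE 0.56, adjusted p = 0.00167). PGLYRP1, a bactericidal peptidoglycan-binding protein, had 57.9 and 22.7, against 193, with 70.3 in other cells (log2 change -2.34, SE 0.61, adjusted p = 0.00578). TCN1, a vitamin B12 binding protein, had 13.6 and 29.2, against 126, with 1.37 in other cells (log2 change -2.45, SE 0.67, adjusted p = 0.00995). LCN2 kept its call in DESeq2 (adjusted p = 0.0177) and its adjusted p ranged from 1.27e-06 to 0.0256 over the alternatives with a test. PGLYRP1 lost its call in DESeq2, and its adjusted p ranged from 0.00252 to 0.979. TCN1 lost it as well, with a range of 0.00995 to 0.999919.

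**Figure D5:**
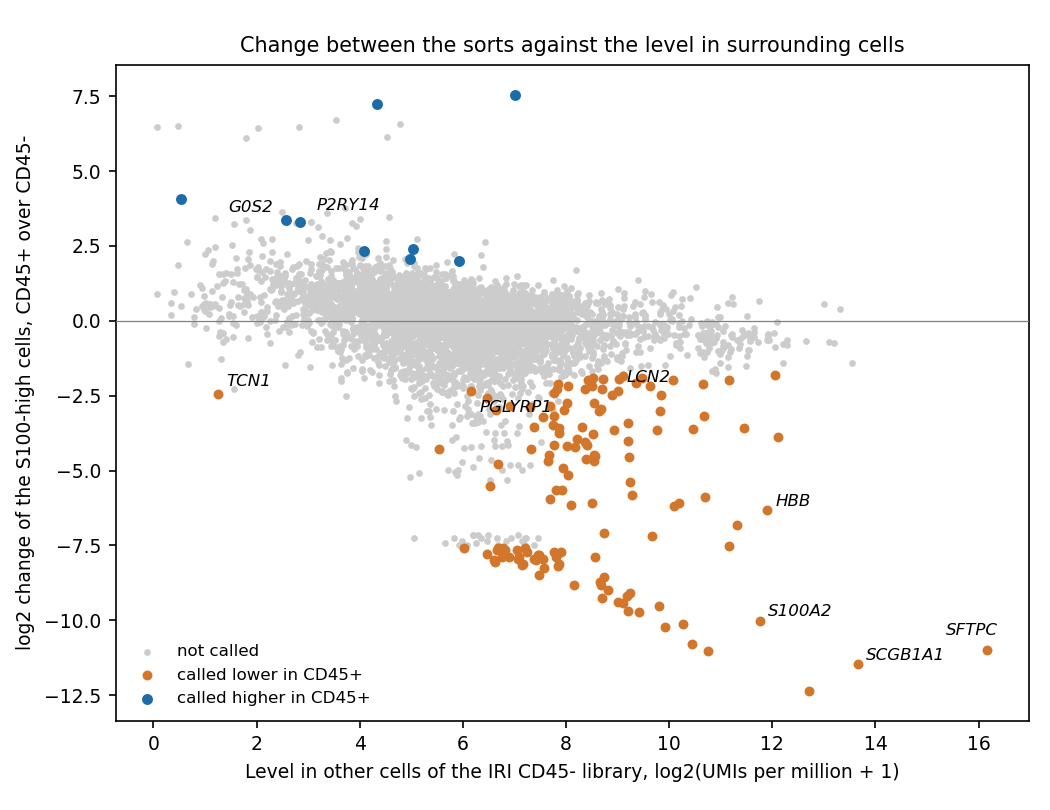
Each point is 1 of 4400 genes: log2 of its level plus 1 in other cells of the CD45- library (horizontal) against the log2 change of the S100-high cells, CD45+ over CD45- (vertical), with called genes coloured. SFTPC and SCGB1A1 lie at high levels in the surrounding cells and TCN1 at a low one, and the levels of called and uncalled genes were not compared. Fitted values of genes at 0 UMIs in a group depend on the prior count and are no bounds.

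By list, and beside the 3.14% lower and 0.205% higher over all genes, 3 of 13 specific and gelatinase granule genes were called lower (LCN2, PGLYRP1 and PTX3, the last at 0 UMIs in both CD45+ sums) and 0 higher, with a median log2 change of -0.43. Of 23 receptors 0 were called, with 0 at an unadjusted p under 0.05. Of 26 cytokines CCL2, the monocyte chemokine, was called lower, with 88.6 and 189.7 CPM in the CD45+ libraries and 2078 in the CD45- library, whose other cells had 4439; 5 cytokines had an unadjusted p under 0.05 in the higher direction, among them IL1A, CCL4 and CCL5, beside 144 of the 4400 genes, and the median was 0.85. Of 33 interferon response genes edgeR called 0 and 4 had an unadjusted p under 0.05, all higher (144 of 4400 over all genes), with a median of 0.78, beside 0.02 over all genes. Among 22 metal and antioxidant genes MT1A, MT1X and PRDX5 were called lower, and S100A6 among 8 alarmins; each stood higher in other cells of the CD45- library than in its S100-high cells.

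With the cells limited to those without UMIs of the 4 monocyte genes, a limit added after seeing the data, 82 genes were higher and 192 lower, of which 4 and 111 were shared with the counts above; that limit also leaves fewer and shallower cells, and the cause was not tested. Leaving out a CD45+ library leaves 1 against 1, a difference with no test.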

How the data were processed

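The members and all gene lists were chosen with earlier results of these data known. The authors deposited UMI counts per gene and cell, not normalized; per the file headers the matrices were written by PISA, and per the labels the libraries were made from lung cell suspensions with a DNBelab C Series kit. Per the submitters' processing notes the build was Sscrofa11.1, with R 4.2.2 and Seurat 5.5.3 as software; the aligner is not given in the sources used here. Of 17062 Ensembl identifiers 139 took a symbol from the reference table, and coordinates are those of RefSeq on Sscrofa11.1.

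Software was scipy 1.17.1, pandas 2.3.3 and numpy 2.4.6 under Python 3.11.15, with matplotlib 3.10.9 for figures. The rule was applied to each cell of 500 or more UMIs, and UMIs were summed per library over members and over other cells. Ratios used a floor of 3 UMIs. Cells were thinned to 500 UMIs by random draw. Shares have exact Clopper-Pearson 95% intervals. CD45+ and CD45- sums were compared with edgeR 4.0.16 in R 4.3.3 (TMM, filterByExpr, robust quasi-likelihood fit; Benjamini-Hochberg over all genes tested, threshold 0.05; SE is the log2 change over the square root of F), tested on simulated data, with DESeq2 1.42.0 as an alternative. Over the genes listed in all 3 graft libraries, member sums held 334036 and 616484 UMIs in the CD45+ libraries and 365720 in the CD45- library.

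Named genes were the 15 highest and 10 lowest against other cells (at 100 CPM or more), the 10 with the highest variance to mean, members of the lists, and between sorts the 10 largest called changes each way (at 50 CPM or more, no overlap) with called list members; KRT17, TCN1, EVL and the genes of the monocyte split were named after their values were seen. Alternatives changed the UMI, S100 and CD74/HLA-DRA limits, the comparison cells, the level, scaling, filter and tool, and left out each library. Some genes of the lists are not reported here.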

Additional observations from a re-analysis of the deposited data

Results flagged for a closer look

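Of the listed genes 3 stood on opposite sides of the other cells in the 2 sorts, by over 2-fold in each library; the difference was not tested. CEBPD, a transcription factor of the acute phase response, had 195 and 287 CPM in S100-high cells of the CD45+ libraries, against 73.5 and 129.5 in their other cells, and 384 in the CD45- library, against 837 (log2 ratio -1.12 there). CSF3, the granulocyte growth factor, had 138 and 87.6, against 7.74 and 29.2, in the CD45+ libraries, and 232, against 574, in the CD45- library (log2 ratio -1.31). HMGB2, a chromatin protein of dividing and myeloid cells, had 275 and 384, against 869 and 821, in the CD45+ libraries, and 594, against 210.2, in the CD45- library (log2 ratio 1.499). The other cells differ between the sorts by design.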

How the results depend on the processing

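The share of S100-high cells was above that of the CD45- library in both CD45+ libraries under every limit tried. It was 3.04% in CD45+ replicate 1 and 1.02% in the CD45- library at 1000 or more UMIs, and, for CD45+ replicate 1, CD45+ replicate 2 and the CD45- library, 1.41%, 2.40% and 0.837% at an S100 share of 2% or more, 7.01%, 8.37% and 2.15% at 0.5% or more, and, added after seeing the data, 9.19%, 11.4% and 2.72% at 0.3% or more and 3.02%, 2.90% and 1.09% without monocyte-gene UMIs. In the CD45- library it was 1.18% with CD74 and HLA-DRA under 0.1% and 0.917% with 0 UMIs of EPCAM, CDH5 and COL1A1. Genes over 2-fold lower than in other cells numbered 507 with 0 UMIs of those 3 genes and 606 against other cells with a PTPRC UMI; 224 were higher against the monocyte/macrophage gate; with no minimum level 715 were higher and 700 lower. Leaving out 1 library gave 359 to 474 higher and 337 to 994 lower, the last without the CD45- library. Among named genes the mean log2 ratio to other cells changed sign for CTSB (-0.48 at an S100 share of 2% or more, -2.09 against the monocyte/macrophage gate, -0.0163 to 0.97 with 1 library left out, the first without the CD45- library, -0.73 without monocyte-gene UMIs), SORL1 (1.71 against the monocyte/macrophage gate, 0.41 without monocyte-gene UMIs) and VCAN (-0.64, by construction, since that limit removes its UMIs); the cause of the others was not tested. Between the sorts the 9 higher genes became 2 with library totals only, 2 with no filter on low counts, 1 with 0 UMIs of EPCAM, CDH5 and COL1A1, 5 with each cell thinned, 82 without monocyte-gene UMIs and 0 in DESeq2, and the 138 lower became 69 at an S100 share of 2% or more, 86 with CD74 and HLA-DRA under 0.1%, 33 with 0 UMIs of EPCAM, CDH5 and COL1A1, 54 with each cell thinned, 192 without monocyte-gene UMIs and 40 in DESeq2; the cause was not tested. With CD45+ replicate 1 left out, and likewise with CD45+ replicate 2 left out, 16 of 26 named genes moved by more than 1 SE. These values used a larger prior count than the edgeR changes. Genes at 0 UMIs in the CD45+ sums can therefore move whichever library is left out, and the count does not measure dependence on a library. No paired analysis was possible because the CD45- library carries no replicate number. Depth limits the description: the median S100-high cell held 1175 to 1686 UMIs, so a gene at a few CPM cannot be told from 0 in a cell.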
